A study of Mus musculus with 20 samples.

Results

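Lyz2, Ccr2, Adgre1, Cd68, C1qa, C1qb, C1qc, Vcam1, Cybb and Mrc1 are 10 genes used to recognise monocytes and the resident macrophages of bone marrow and other tissues. They were chosen by name, with earlier results of these data known. All 10 were found among the 49568 genes of the deposited tables and passed the filter on low counts in every comparison. They were measured by RNA sequencing in long-term haematopoietic stem cells (LT-HSC), which renew themselves and all blood lineages, and in multipotent progenitors (MPP), their progeny with little self-renewal. Both populations were sorted by flow cytometry from the bone marrow of untreated mice of 8 to 12 weeks. Wild-type mice (WT, C57BL/6) were compared with AHR KO mice (Ahr-KO), which lack the aryl hydrocarbon receptor AHR, a transcription factor activated by small ligands. The 4 groups are WT LT-HSC, Ahr-KO LT-HSC, WT MPP and Ahr-KO MPP, with 5 libraries each. Neither the allele nor the sort markers are given in the labels, which also do not say that the libraries of a group came from separate animals, so p-values measure the spread between libraries. The study asked which targets of AHR act on stem cell function and proliferation.

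Monocytes arise in the marrow from myeloid progenitors, leave it by means of the chemokine receptor CCR2, and can become macrophages in tissues. Macrophages of the marrow engulf spent cells and the nuclei that erythroblasts expel, and they carry F4/80 (Adgre1), the lysosomal protein CD68, the mannose receptor (Mrc1) and VCAM1, which binds integrins on blood cells. C1qa, C1qb and C1qc encode the 3 chains of C1q, which starts the classical complement pathway and is made largely by macrophages. Cybb encodes gp91phox, the catalytic subunit of the phagocyte NADPH oxidase, and Lyz2 encodes lysozyme M of monocytes, macrophages and granulocytes. Transcripts of lysozyme can also be found in myeloid progenitors.

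Total counts per library ranged from 13712668 to 21622653. Ahr transcripts stood at 20.8 to 36.6 CPM (counts scaled to a common library total) in WT LT-HSC, against 18.5 to 29.7 CPM in the same cells of Ahr-KO mice, and at 5.79 to 14.2 CPM in WT MPP against 9.79 to 19.2 CPM in Ahr-KO MPP, so the counts of that gene do not separate the genotypes. Without the allele it is not known whether the counted part of the gene was deleted. Markers set the populations apart as labelled: Flt3 and Cd34 were higher in MPP than in LT-HSC (in WT, log2 fold changes 3.07 ± 0.17 and 1.5 ± 0.12, SE), and Procr was lower (-1.84 ± 0.15). A list of 10 stem and progenitor genes summed to 2981 to 4205 CPM in 8 LT-HSC libraries and to 3414 and 3630 CPM in the remaining ones, Ahr-KO LT-HSC 2 and 3. Those 2 libraries stood apart in the levels of the genes described later, and WT LT-HSC 1 in measures over the whole library. WT LT-HSC 1 correlated with the others of its group at r = 0.900 to 0.910, while every other pair of replicates reached at least 0.931, and its share of mitochondrial counts was 0.386% against at least 1.07% in the other LT-HSC libraries.

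C1qa, C1qb and C1qc lie side by side on the minus strand of chromosome 4 (GRCm38, GENCODE M21), with C1qb at chr4:136880129-136886187, C1qc at chr4:136889804-136893065 and C1qa at chr4:136895917-136898803. Cd68 is at chr11:69664213-69666153 (minus), Cybb at chrX:9435252-9487771 (minus) and Mrc1 at chr2:14229392-14332057 (plus). Their promoters are shown, chosen after the values were seen, because the levels set C1qb, C1qc, Cd68 and Mrc1 apart from Cybb in 2 libraries described later. RefSeq windows of 250 bases before the annotated start (GRCm38.p6) were matched for 7 of the 10 genes, Lyz2, Ccr2, Cd68, C1qb, C1qc, Cybb and Mrc1, and not matched for C1qa, Vcam1 and Adgre1. Each run is 5′ to 3′ on the strand of the gene, with bases inside annotated exons left out. Capitals mark GAGGAA or its reverse complement TTCCTC, a form of the letters bound by PU.1, an ETS factor that myeloid cells need. Other forms were not searched, so a window without capitals, such as that of Cybb, may still hold a PU.1 site. The windows are chr4:136886201-136886450 for C1qb, chr4:136893066-136893164 for C1qc, chr11:69666171-69666420 for Cd68, chr2:14229164-14229391 for Mrc1 and chrX:9469325-9469574 for Cybb, the last of which falls inside the longer GENCODE span of its gene.
C1qb promoter: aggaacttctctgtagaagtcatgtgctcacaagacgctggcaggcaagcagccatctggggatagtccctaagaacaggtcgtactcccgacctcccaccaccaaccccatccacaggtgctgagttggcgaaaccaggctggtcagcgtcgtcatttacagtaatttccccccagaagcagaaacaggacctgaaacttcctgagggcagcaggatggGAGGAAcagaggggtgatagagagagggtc
C1qc promoter: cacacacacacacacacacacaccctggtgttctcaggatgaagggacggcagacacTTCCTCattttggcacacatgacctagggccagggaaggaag
Cd68 promoter: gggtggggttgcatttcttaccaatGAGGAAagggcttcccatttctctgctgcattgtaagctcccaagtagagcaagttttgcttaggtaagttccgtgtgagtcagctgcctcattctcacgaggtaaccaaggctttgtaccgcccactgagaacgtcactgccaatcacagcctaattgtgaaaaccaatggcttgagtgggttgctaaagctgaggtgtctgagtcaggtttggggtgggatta
Mrc1 promoter: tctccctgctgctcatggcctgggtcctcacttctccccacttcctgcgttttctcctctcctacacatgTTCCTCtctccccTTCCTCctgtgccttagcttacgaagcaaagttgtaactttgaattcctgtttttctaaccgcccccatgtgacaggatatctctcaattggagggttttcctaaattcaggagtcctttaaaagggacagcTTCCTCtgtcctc
Cybb promoter: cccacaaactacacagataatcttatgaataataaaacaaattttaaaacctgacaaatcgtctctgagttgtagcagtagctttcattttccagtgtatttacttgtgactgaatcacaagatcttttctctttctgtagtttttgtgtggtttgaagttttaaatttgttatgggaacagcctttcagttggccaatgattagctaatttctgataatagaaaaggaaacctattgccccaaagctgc

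The searched form of the PU.1 letters was present on either strand in 4 of the 7 windows, against 23.3% of 32851 RefSeq windows of the same length. In C1qb it began at position -30 from the start, in C1qc at -193, in Cd68 at -225 and in Mrc1 at -180, -167 and -35. TGCTGA, the core letters of elements bound by MAF factors of macrophages, or its complement TCAGCA, was found in 2 of 7 windows (Lyz2 at -125 and C1qb at -131), against 16.1% of all windows. GCGTG, the core letters of AHR elements, or CACGC was in 0 of 7 windows, while 28.2% of all windows hold it. No searched motif overlaps another in its letters, and a match describes letters, not binding.

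Levels of different genes were compared as CPM per kilobase of annotated exon. Lyz2 came first in all 4 groups, with medians of 396 and 389 in WT and Ahr-KO LT-HSC and of 404 and 373 in WT and Ahr-KO MPP. Cd68 followed, at a median of 9.96 and 12 CPM per kilobase in LT-HSC and 22.3 and 27.3 in MPP, and C1qb came after it in every group, with ranges that overlapped those of Cd68 in both Ahr-KO groups and not in WT. Lysozyme transcripts were thus abundant in all 20 libraries (lowest 288 CPM per kilobase), including those almost without transcripts of Cybb and Ccr2. Lyz2 has a near-identical neighbour, Lyz1, so that the split of reads between these genes is uncertain. Below C1qb the order is loose, because the ranges of neighbours overlap. In WT LT-HSC, C1qc, C1qa, Vcam1, Ccr2, Cybb, Adgre1 and Mrc1 had medians from 2.85 down to 0.410. In WT MPP the next were C1qa (8.29), C1qc (7.13), Cybb (7.06), Vcam1 (5.82) and Ccr2 (4.35), with Mrc1 (1.99) and Adgre1 (1.64) last.

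**Figure D1:**
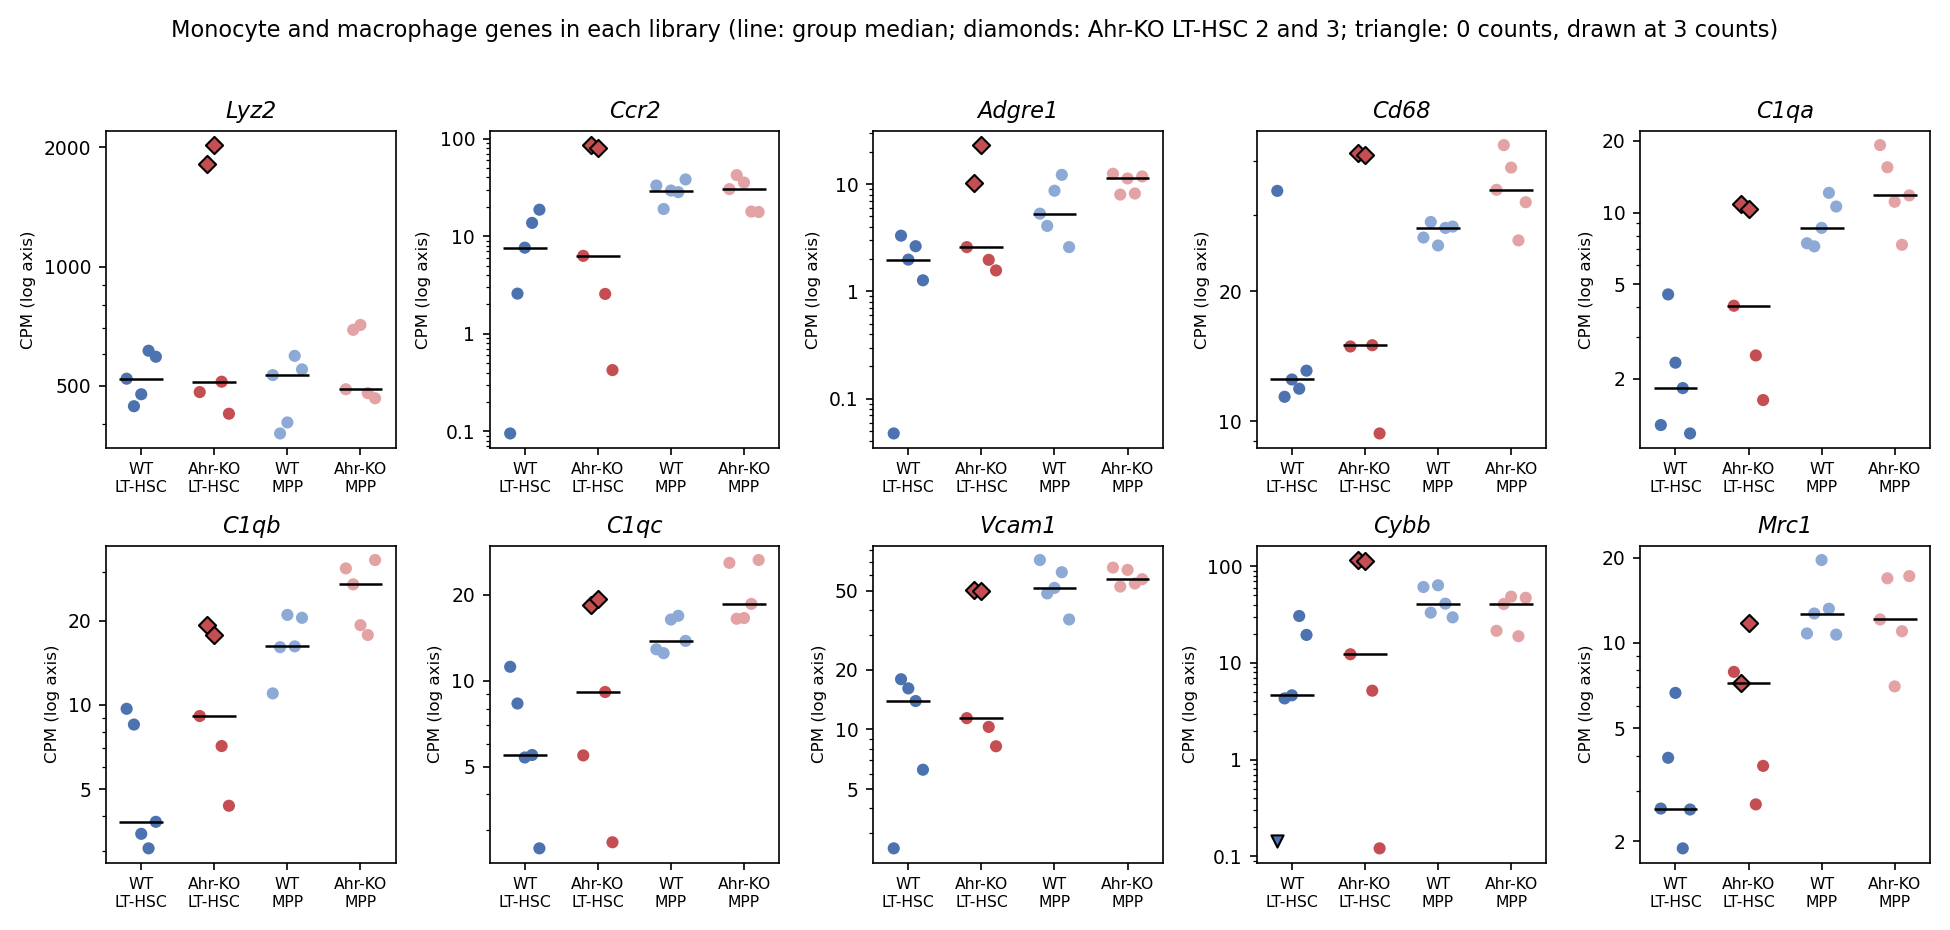
Each panel plots 1 gene in CPM on a log axis, with 1 point per library, 4 groups of 5 libraries and a line at the group median. The diamonds are Ahr-KO LT-HSC 2 and 3, which lie above the 8 other LT-HSC libraries for every gene except Mrc1, and the triangle is the library with 0 counts of Cybb, drawn at the level of 3 counts.

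Within LT-HSC the genes were carried by 2 libraries. Ahr-KO LT-HSC 2 and 3 both exceeded each of the 8 other LT-HSC libraries for 9 of the 10 genes, while this held for 5.3% of the 16065 genes tested in LT-HSC. The genes were chosen with earlier results of these data known, so this share is a description and not independent support. In bulk RNA, more cells of a type and more RNA per cell cannot be told apart.

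Cybb and Ccr2, genes of the phagocyte oxidase and of monocyte exit, had the highest ratios of the 10 genes. In the pair, Cybb reached 116 and 113 CPM, beside 0 to 30.6 CPM (median 4.90) in the 8 others. Ccr2 had 85.9 and 79.4 CPM against 0.0950 to 18.7 CPM (median 4.43). Lyz2 had 1812 and 2025 CPM against 425 to 613 CPM (median 497). The mean of the pair was 23.4 times the median of the 8 for Cybb, 18.6 times for Ccr2 and 3.86 times for Lyz2, and no value of the pair came near the range of the others.

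Macrophage genes other than Mrc1 showed the same pair of libraries on top, at ratios below those of Cybb and Ccr2. F4/80 transcripts (Adgre1) were at 10.2 and 23.1 CPM against 0.0475 to 3.31 CPM (median 1.98), a ratio of 8.42. The C1q chains had 10.9 and 10.3 CPM for C1qa (others 1.18 to 4.53), 19.3 and 17.8 CPM for C1qb (others 3.07 to 9.69) and 18.4 and 19.3 CPM for C1qc (others 2.59 to 11.2), with ratios of 5.09, 3.24 and 3.43. Vcam1 stood at 50.1 and 50 CPM against 2.52 to 17.9 CPM (ratio 4.60). It is overlapped on the opposite strand by the antisense gene Gm43109, whose reads cannot be told apart with an unstranded kit. Cd68, at 41.8 and 41.3 CPM, was only 1.21 times the highest other library, WT LT-HSC 1 at 34.1 CPM, while the remaining 7 libraries reached at most 15.0 CPM. Mrc1 was the exception: Ahr-KO LT-HSC 3 had 11.8 CPM, but Ahr-KO LT-HSC 2, at 7.22 CPM, lay below Ahr-KO LT-HSC 1 at 7.91 CPM. Mrc1 also holds Mir511 on its own strand, whose reads could be split from it in counting.

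At the other end, WT LT-HSC 1 was nearly devoid of some of these transcripts and not of others. It held 0 counts of Cybb, which allows up to 0.143 CPM at 3 counts, 1 count of Adgre1, 2 counts of Ccr2 and 53 counts of Vcam1. Yet its Lyz2, at 521 CPM, lay inside the range of the other WT LT-HSC libraries (444 to 613 CPM), and its C1qb and C1qc, at 9.69 and 11.2 CPM, were the highest of that group. Ahr-KO LT-HSC 7 was also low, with 2 counts of Cybb and 7 of Ccr2, beside 26 counts of Adgre1 and 136 of Vcam1. Cybb and Ccr2 therefore spanned a far wider range over the LT-HSC libraries than the C1q chains did.

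**Figure D2:**
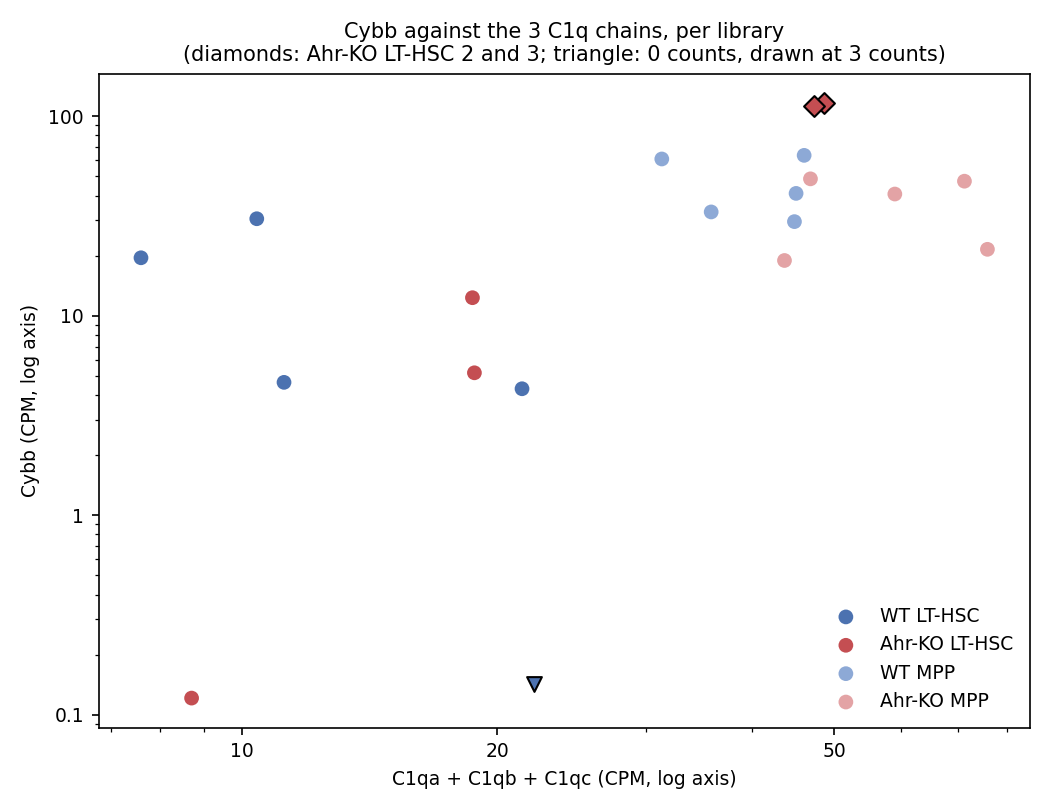
Cybb (vertical, CPM, log axis) is plotted against the sum of C1qa, C1qb and C1qc (horizontal, CPM, log axis), 1 point per library, coloured by group. The diamonds, Ahr-KO LT-HSC 2 and 3, share the C1q sum of MPP libraries (48.6 and 47.4 CPM) but lie above all of them in Cybb, and the triangle is WT LT-HSC 1 with 0 counts of Cybb.

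Set beside the 10 MPP libraries, the pair split the genes. For Lyz2, Ccr2 and Cybb both libraries lay above every MPP library (highest MPP values 712, 42.3 and 63.6 CPM), with means 3.75, 2.76 and 2.80 times the MPP median. Over the genes tested in all libraries, 11.4% had both libraries above all 10 MPP libraries. C1qa, C1qb, C1qc, Cd68, Vcam1 and Mrc1 lay inside the MPP range in both libraries, with ratios from 0.769 for Mrc1 to 1.46 for Cd68. Adgre1 was inside that range in Ahr-KO LT-HSC 2 and above it in Ahr-KO LT-HSC 3. Lyz2 counts per count of Cybb were 15.7 and 17.9 in the pair and 6.35 to 25.4 over the MPP libraries, but 20.1 or more in the other LT-HSC libraries that had Cybb counts.

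Further lists of cell type genes were read in the same 2 libraries, over genes reaching 1 CPM in an LT-HSC library. This keeps genes that reached 1 CPM only in the pair, such as Ace, Trem2 and C5ar1, which raises the counts below. The shares of all genes are over genes kept by another filter, so the 2 are not strictly comparable. Of 18 monocyte genes, 16 were above the 8 other LT-HSC libraries in both, among them F13a1, the coagulation factor subunit of monocytes (339 and 454 CPM, others up to 84.3), Chil3, a secreted chitinase-like protein (164 and 133 CPM, others up to 36.6), and Fn1, fibronectin (233 and 323 CPM, others up to 74.7). The exceptions were Nr4a1 and S100a4. Both libraries were also above all 10 MPP libraries for 7 of 18 monocyte and 5 of 19 macrophage genes, against 11.4% of all genes. The same held for 9 of 12 neutrophil, 10 of 10 erythroid and 6 of 10 stem and progenitor genes. It held for 0 of 8 granule genes of myeloid progenitors and 0 of 8 B cell genes. Fn1 was above the MPP libraries, whose highest value was 33.2 CPM, as was Lgals3, galectin-3, at 72 and 85.9 CPM against at most 20.3 CPM. These genes and those in the next sentences were picked after their values were seen. Of 19 macrophage genes, 14 were above the others in both libraries. The 5 that were not are Spic, the ETS factor of red pulp and marrow macrophages (6.72 and 6.96 CPM, others 3.27 to 9.31), Siglec1, the sialic acid receptor CD169 (4.50 and 0.889 CPM, others up to 3.19), Timd4, Mertk and Maf.

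Genes of other cell types moved with the same libraries. Both libraries were above the 8 others for 11 of 12 neutrophil genes, 7 of 8 granule genes of myeloid progenitors, 9 of 10 erythroid genes and 6 of 8 B cell genes. Some of these, such as Ly6g and Igll1, passed the filter of 1 CPM only through the pair. The summed neutrophil list was at 972 and 1476 CPM against 8.55 to 94.9 CPM, the granule list at 2412 and 2040 CPM against 97.5 to 1364 CPM, the erythroid list at 4333 and 4818 CPM against 2036 to 3706 CPM, and the B cell list at 318 and 166 CPM against 42.4 to 88.1 CPM. Fewer genes did so in the lists of dendritic cells (2 of 12), endothelium (2 of 9), stroma and bone (3 of 12), osteoclasts (1 of 2) and stem and progenitor cells (1 of 10). The stroma and bone list separated the pair, with 113 CPM in the library numbered 2 and 4326 CPM in that numbered 3, with 23 to 110 CPM in the others. The part of any of these cell types in the levels of the 10 genes was not tested.

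**Figure D3:**
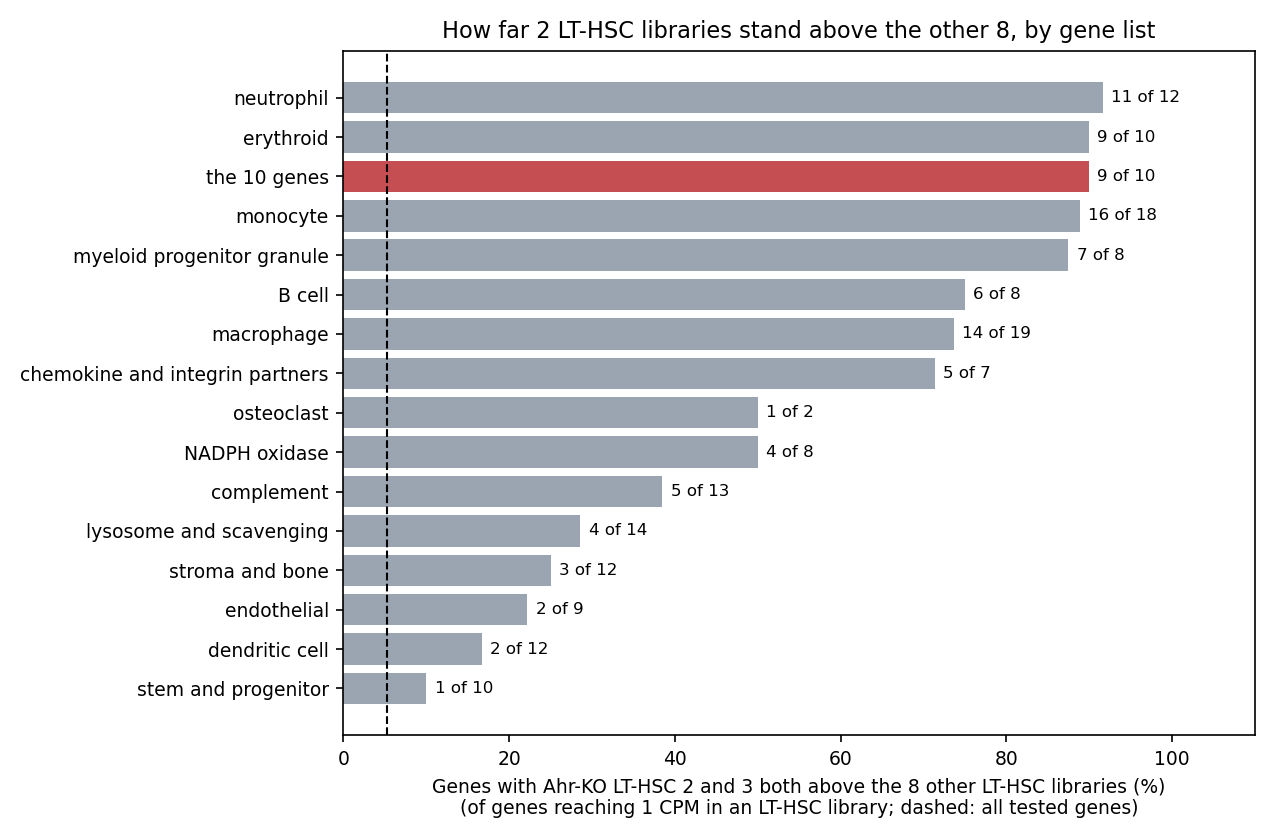
Bars give the percentage of each list's genes for which Ahr-KO LT-HSC 2 and 3 both exceed the 8 other LT-HSC libraries, with the counts printed at the bar ends. The list of 10 genes (red) stands at 9 of 10 beside the neutrophil, erythroid and monocyte lists, and the dashed line marks the 5.3% of all tested genes. The lists were filtered in another way than all tested genes, and were chosen with earlier results of these data known.

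Partner genes of the members were read from lists of their pathways. Of the oxidase components, 4 of 8 were above the others in both libraries, among them the cytosolic subunits Ncf1 (57.2 and 53.3 CPM, others 3.90 to 20.9) and Ncf4 and the proton channel Hvcn1. Cyba, which forms the membrane core with the Cybb product, was at 150 and 169 CPM, inside the range of the others (84.0 to 190 CPM), which WT LT-HSC 1 topped. Among complement genes 5 of 13 were higher in both, including C3 (103 and 119 CPM, others 0.475 to 28.5) and properdin, Cfp (44.2 and 55.9 CPM, others 6.84 to 19.9). C1ra, whose product C1q activates, was not among them, at 42.0 and 47.4 CPM within 38.9 to 58.6 CPM. C3ar1 and C5ar1, counted among the higher ones, reached 1 CPM only in the pair. The CCR2 ligands Ccl2, Ccl7, Ccl8 and Ccl12 stayed under 0.600 CPM in every library, and Ccl12 had 0 counts in all 20. Itga4, the integrin chain that binds VCAM1, was at 101 and 120 CPM in the pair and 9.93 CPM in WT LT-HSC 1, with 82.6 to 125 CPM in the remaining 7.

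The comparison of Ahr-KO with WT in LT-HSC asks whether loss of the receptor shifted these genes in stem cells. No gene of the 10 passed the test (edgeR, adjusted p under 0.05), where 0.00622% of all 16065 genes did, and the ranges of the groups overlapped for all 10 (of all genes, 2.22% were higher and 1.41% lower without overlap). Every log2 fold change was positive, with a median of 1.13 against 0.000791 over all genes, and 3 of the 10 had an unadjusted p under 0.05, as had 1422 of all 16065 genes. DESeq2 and limma voom called none of the 10 either. The values of Adgre1 and C1qa were 2.11 ± 0.91 (SE, adjusted p = 0.550) and 1.42 ± 0.58 (adjusted p = 0.544). Lyz2 was at 1.01 ± 0.45 (adjusted p = 0.560). Larger standard errors came with Cybb (2.09 ± 1.38) and Ccr2 (2.06 ± 1.29), whose libraries are the most spread out. The others ran from 0.58 ± 0.48 for Cd68 to 1.22 ± 0.66 for Vcam1.

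Without Ahr-KO LT-HSC 2 and 3, 4 of the 10 were positive, the median was -0.166, and again none passed the test (background 0.00601%) and all ranges overlapped (of all genes, 3.55% were higher and 2.5% lower without overlap). Cybb then stood at -0.99 ± 1.43, Ccr2 at -1.45 ± 1.21 and Lyz2 at -0.15 ± 0.13 (SE), with adjusted p = 0.999 for each. The mean of Lyz2 was 529 ± 72.6 CPM in WT (SD, n = 5) and 473 ± 44.0 CPM in the 3 remaining Ahr-KO libraries, where it was 1051 ± 796 CPM with all 5. The C1q chains were at 0.30 ± 0.50 (C1qa), 0.28 ± 0.45 (C1qb) and -0.18 ± 0.50 (C1qc). The direction of 6 of the 10 genes thus turned with these 2 libraries. Both were the highest for 9 of the 10 genes, so lower Ahr-KO values follow in part from leaving them out. The monocyte list likewise went from 16 of 17 positive (median 1.43) to 7 of 17 (median -0.106), and the macrophage list from 16 of 17 (median 0.901) to 8 of 17 (median -0.129), with no gene called in either setting.

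In MPP, where no library of the 10 genes stood so far apart, Ahr-KO and WT were closer. No gene of the 10 was called (background 0.0311%), 7 of 10 values were positive, the median was 0.277 against 0.00484 over all genes, and the ranges of all 10 overlapped (of all genes, 0.61% were higher and 0.56% lower without overlap). The C1q chains were the most alike among themselves. C1qa was at 7.43, 7.21, 8.62, 12.1 and 10.6 CPM in WT and at 19.2, 15.6, 11.1, 7.32 and 11.8 CPM in Ahr-KO (log2 fold change 0.49 ± 0.26, SE, adjusted p = 0.769). C1qb was at 11, 16.1, 21.0, 16.2 and 20.5 CPM in WT and at 30.8, 27.0, 19.3, 17.8 and 33.0 CPM in Ahr-KO (0.59 ± 0.22, adjusted p = 0.660). C1qc was at 13, 12.5, 16.4, 16.9 and 13.8 CPM in WT and at 25.9, 16.5, 16.6, 18.6 and 26.5 CPM in Ahr-KO (0.51 ± 0.18, adjusted p = 0.620). Ahr-KO MPP 1 and 5 were highest for the C1q sum, at 75.9 and 71.3 CPM, and 4 Ahr-KO libraries (46.9, 59.0, 71.3 and 75.9 CPM) exceeded the highest WT value of 46.1 CPM, while the lowest Ahr-KO value, 43.7 CPM, lay inside the WT range.

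Cd68 was at 26.6, 28.9, 25.5, 28.0 and 28.2 CPM in WT MPP and at 34.3, 43.5, 38.6, 26.2 and 32.1 CPM in Ahr-KO MPP (0.35 ± 0.14, adjusted p = 0.664). Ahr-KO MPP 4 alone fell into the WT range. Adgre1 had 5.31, 4.08, 8.68, 12.2 and 2.59 CPM in WT and 12.5, 7.99, 11.3, 8.18 and 11.8 CPM in Ahr-KO (0.65 ± 0.35, adjusted p = 0.776). In this comparison Lyz2 was at 0.21 ± 0.16, Ccr2 at -0.04 ± 0.26 and Cybb at -0.37 ± 0.29. Vcam1 (0.12 ± 0.16) and Mrc1 (-0.07 ± 0.25) were near 0. Unadjusted p was under 0.05 for Cd68, C1qb and C1qc, 3 of the 10, and for 1065 of all 16077 genes.

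The list of other macrophage genes had 16 of 20 positive values in the same comparison, a median of 0.455 and 6 genes with an unadjusted p under 0.05 (over all genes, the 1065 of 16077 given above), and none was called. Its smallest p belonged to Fcna, ficolin A, a lectin of the complement system made by macrophages (0.77 ± 0.20, adjusted p = 0.530). The monocyte list had 13 of 18 positive values and a median of 0.196. The B cell list had 8 of 9 positive values (median 1.58, none called). Its summed level overlapped, at 750 to 4192 CPM in WT and 339 to 1266 CPM in Ahr-KO, and was mostly the plasma cell gene Jchain (198 to 4081 CPM). Their part in the values of the 10 genes was not tested.

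**Figure D4:**
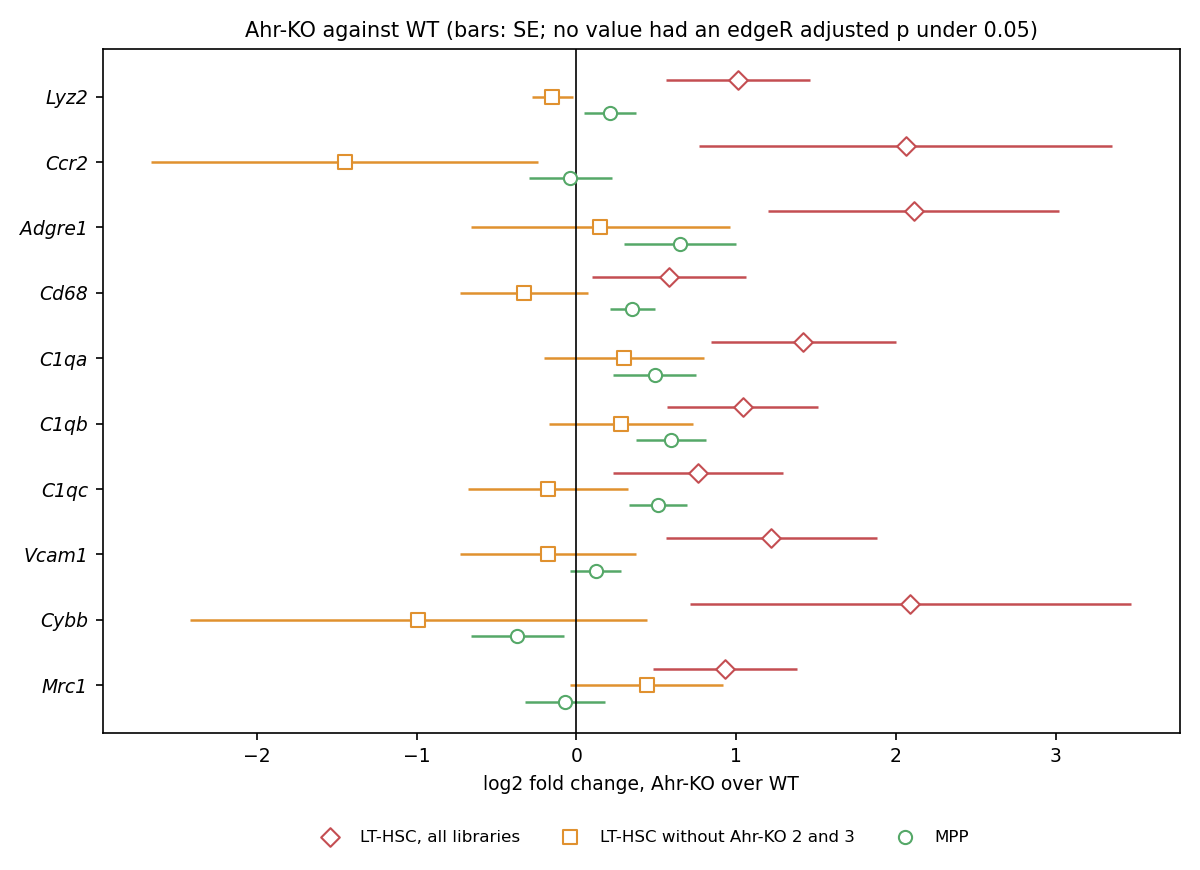
Points are log2 fold changes of Ahr-KO over WT with standard errors, for LT-HSC with all libraries (diamonds), LT-HSC without Ahr-KO 2 and 3 (squares) and MPP (circles). Open symbols mark values that did not pass the test, which holds for all of them; the diamonds lie right of 0 for every gene and the squares for 4 of 10.

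MPP were compared with LT-HSC within each genotype, to see how the genes change as stem cells become progenitors. In WT, 4 of the 10 genes rose in MPP (edgeR, adjusted p under 0.05), where 11% of 17416 genes were called higher and 22.3% in either direction. They were Vcam1 (log2 fold change 2.24 ± 0.51, SE, adjusted p = 0.00329), C1qa (2.04 ± 0.47, adjusted p = 0.00375), Mrc1 (1.92 ± 0.39, adjusted p = 0.00123) and C1qb (1.57 ± 0.39, adjusted p = 0.00601), genes of adhesion, complement and uptake. The ranges of MPP and LT-HSC did not touch for 6 of the 10, all higher in MPP, against 8.31% of all genes.

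Vcam1 was at 2.52, 17.9, 16.1, 13.9 and 6.27 CPM in the WT LT-HSC libraries and at 71.3, 48.4, 51.6, 61.9 and 35.8 CPM in WT MPP. Every MPP library thus held at least 35.8 CPM and no LT-HSC library more than 17.9 CPM. Mrc1 was at 2.61, 3.94, 6.67, 1.89 and 2.59 CPM in LT-HSC and at 10.8, 12.7, 19.6, 13.2 and 10.7 CPM in MPP. C1qa was at 1.28, 4.53, 2.34, 1.83 and 1.18 CPM in the LT-HSC libraries, all below its lowest MPP value of 7.21 CPM. C1qb was at 9.69, 8.51, 3.46, 3.07 and 3.82 CPM in LT-HSC, and its lowest MPP value was 11 CPM.

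The remaining 6 genes did not pass in WT with edgeR, while DESeq2 called Adgre1 (adjusted p = 0.0344) and C1qc (adjusted p = 0.0282) and limma voom called Cd68 (adjusted p = 0.00457) and C1qc (adjusted p = 0.00484). C1qc, at 1.14 ± 0.41 (adjusted p = 0.0548), and Adgre1, at 1.83 ± 0.73 (adjusted p = 0.0801), had values of similar size to the called ones. Cybb (1.96 ± 1.08, adjusted p = 0.219) and Ccr2 (1.79 ± 1.0, adjusted p = 0.222) had wide errors, since their LT-HSC libraries ran from 0 to 30.6 and from 0.0950 to 18.7 CPM, with every MPP value of Ccr2 above the latter. Lyz2 was at -0.11 ± 0.35 (adjusted p = 0.877), and its means were 529 ± 72.6 CPM in LT-HSC and 492 ± 94.9 CPM in MPP (SD, n = 5). Without WT LT-HSC 1, whose Cd68 of 34.1 CPM was above every WT MPP library, 6 genes were called (background 15.2% higher, 29.9% in either direction), with Cd68 at 1.17 ± 0.32 (adjusted p = 0.00985) and C1qc at 1.41 ± 0.42 (adjusted p = 0.0161) in addition. With all libraries Cd68 was at 0.72 ± 0.36 (adjusted p = 0.169).

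In Ahr-KO the outcome turned on the same pair of libraries. With all 10 libraries of that genotype, 1 of the 10 genes rose in MPP, C1qb (1.14 ± 0.38, SE, adjusted p = 0.0341). Over all genes, 12.5% were called higher and 23.2% in either direction. The ranges of C1qb overlapped (highest LT-HSC value 19.3 CPM, lowest MPP value 17.8 CPM). Only Vcam1, which was not called, had ranges that did not overlap (11.1% of genes higher without overlap). The call of C1qb was lost on leaving out Ahr-KO LT-HSC 1, 4 or 7 or Ahr-KO MPP 1, 2 or 5. The values then ran from 0.90 to 1.09, with adjusted p from 0.0720 to 0.0996. Lyz2 was at -0.89 ± 0.35 (adjusted p = 0.0771), and was called lower without Ahr-KO LT-HSC 1, 4 or 7 (-1.12, -1.06 and -1.13), where 10.7% of genes were called lower with all libraries, and by DESeq2 with all libraries (-0.91, adjusted p = 0.0328). C1qa was at 1.14 ± 0.45 (adjusted p = 0.0779) and Vcam1 at 1.17 ± 0.49 (adjusted p = 0.0959). Each was called when either of the 2 high libraries was left out, C1qa at 1.45 and 1.39 and Vcam1 at 1.51 and 1.5, and Mrc1 was called without Ahr-KO LT-HSC 3 (1.22).

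Without both of them, 8 of the 10 genes rose in MPP, against 9.88% called higher and 18.9% in either direction, and 8 of 10 ranges did not overlap, against 16.0%. Both were the highest LT-HSC libraries for 9 of the 10 genes, so larger values in MPP follow in part from leaving them out. Ccr2, the receptor for monocyte exit, rose by the most (3.17 ± 0.92, adjusted p = 0.0222). Vcam1 (2.52 ± 0.45, adjusted p = 0.000625) and Adgre1 (2.30 ± 0.69, adjusted p = 0.0250) followed. The C1q chains rose together, C1qa by 2.21 ± 0.44, C1qb by 1.86 ± 0.39 and C1qc by 1.81 ± 0.40 (adjusted p = 0.00176, 0.00268 and 0.00376). Mrc1 (1.40 ± 0.43, adjusted p = 0.0289) and Cd68 (1.38 ± 0.31, adjusted p = 0.00455) completed them. Cybb was at 2.55 ± 1.09 (adjusted p = 0.114) and Lyz2 at 0.23 ± 0.17 (adjusted p = 0.396). In CPM, the 3 remaining LT-HSC libraries averaged 9.99 ± 1.62 for Vcam1 and 2.73 ± 1.23 for C1qa (SD, n = 3), and the 5 MPP libraries 58.5 ± 5.68 and 13 ± 4.54 (SD, n = 5).

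**Figure D5:**
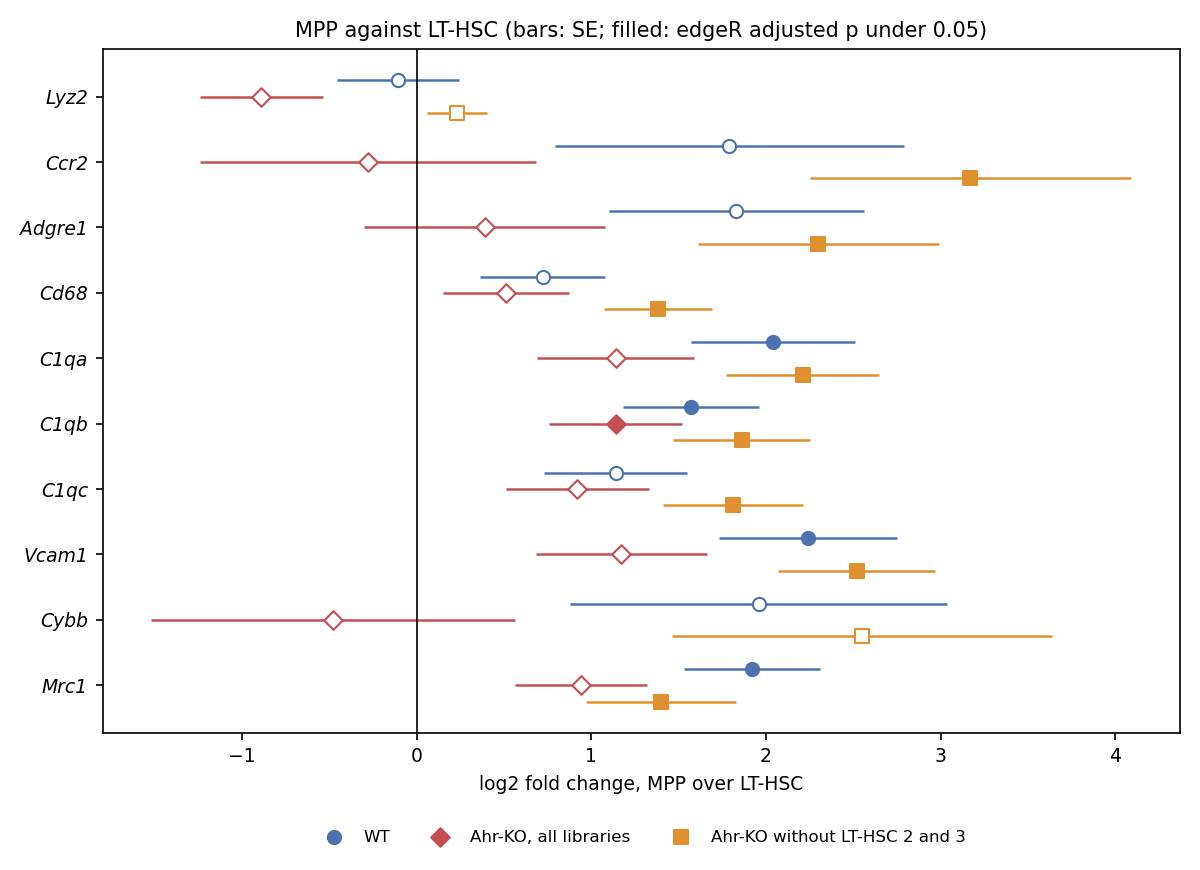
Points are log2 fold changes of MPP over LT-HSC with standard errors, in WT (circles), in Ahr-KO with all libraries (diamonds) and in Ahr-KO without LT-HSC 2 and 3 (squares), filled where the adjusted p was under 0.05. There are 4 filled circles, 1 filled diamond and 8 filled squares, and Lyz2 has no filled symbol.

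Lists of related genes were mixed in WT MPP, with more genes called higher than lower in the macrophage, monocyte and oxidase lists and more lower than higher among called complement and lysosomal genes. Of 20 macrophage genes tested, 7 rose and none fell, led by the Fc receptor Fcgr3 (3.68 ± 0.78), Fcna (1.71 ± 0.39) and the signalling adaptor Tyrobp (2.36 ± 0.60), with adjusted p = 0.00195, 0.00344 and 0.00710. Of 18 monocyte genes, 5 rose and 1 fell, and those that rose include the integrin chain Itgam (2.42 ± 0.39) and the transcription factor Irf8 (2.98 ± 0.64). Of 9 oxidase genes 4 rose and 1 fell, with Ncf4 at 1.74 ± 0.27 and Ncf1 at 2.73 ± 0.53. Among 12 complement genes 1 rose, Cfp (1.77 ± 0.39), and 3 fell, including Cd55, which shields cells from complement (-0.98 ± 0.17), and C1ra (-1.03 ± 0.23). Of 13 lysosomal and scavenging genes 1 rose, the protease Ctss (2.01 ± 0.46), and 2 fell, Ctsl (-0.95 ± 0.14) and Cd63 (-0.44 ± 0.10). Over all genes the median was 0.0117, and the list medians were 1.26 for macrophage, 1.84 for monocyte, 0.203 for oxidase, 0.0522 for complement and 0.0437 for lysosomal genes.

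Genes of other lineages rose in WT MPP as well, 8 of 8 granule genes of myeloid progenitors (median 4.06), 8 of 12 neutrophil genes (2.79) and 6 of 9 B cell genes (3.34). In Ahr-KO the neutrophil list went from 0 of 12 called with all libraries to 10 of 12 without Ahr-KO LT-HSC 2 and 3, the monocyte list from 3 to 7 of 18 and the macrophage list from 3 of 20 to 11 of 21. Most genes of these lists were high in that pair, so more calls follow in part from leaving it out. Their part in the values of the 10 genes was not tested.

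The difference between the Ahr-KO effect in MPP and that in LT-HSC was tested directly. With edgeR no gene was called among the 10 or in the whole table (background 0.0%), and 1125 of 17416 genes and 0 of the 10 had an unadjusted p under 0.05. DESeq2 called 51 genes and limma voom 18 over the whole table, and each called 0 of the 10. All 10 values were negative (median -0.938), from -0.21 ± 0.51 for Cd68 to -2.44 ± 1.49 for Cybb. Without Ahr-KO LT-HSC 2 and 3, 9 of 10 were positive (median 0.429), with Mrc1 the exception at -0.50 ± 0.54, and none was called. Leaving out libraries with high values lowers the effect in LT-HSC, so this turn follows in part from that choice.

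The proportions of the 3 C1q chains varied between libraries, with the extreme in WT LT-HSC 1. Per kilobase, C1qb transcripts were 1.28 to 2.68 times those of C1qa over the 10 MPP libraries, and 1.69 and 1.65 times in Ahr-KO LT-HSC 2 and 3. The other LT-HSC libraries ran from 1.41 to 7.22, the last in WT LT-HSC 1, where C1qa had 27 counts. For C1qc over C1qa the ratios were 0.571 to 1.37 in MPP and 0.907 and 1.01 in the pair. In the other LT-HSC libraries they ran from 0.727 to 4.69, the last in WT LT-HSC 1.

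Genes with the most similar profile were sought for 4 of the 10 over all 20 libraries, as correlations of log2 CPM. The libraries share 2 populations and the pair of high libraries, so these values are descriptions. Ccr2 was closest to Csf1r, the receptor for macrophage colony-stimulating factor (r = 0.980, and 0.980 without the pair), then to Clec4a2, I830127L07Rik, Ccl6 and Cybb (0.968). Genes close to C1qa include Fcna (r = 0.943), Vcam1 (0.920) and the B cell genes Cd79a (0.909) and Igll1 (0.908), and these values were 0.911 to 0.940 without the pair. Vcam1 was closest to Ncf1 (r = 0.948), Siglecf, Ncln, Pilrb1 and Ear2. Lyz2 was closest to Lyz1 (r = 0.961, and 0.766 without the pair), with which it may share reads, and then to Hbb-bt, Hopx, Hbb-bs and Blvrb, whose values of 0.814 to 0.852 became 0.534 to 0.638 without the pair. The profile of Lyz2 thus leaned on these 2 libraries more than those of Ccr2, C1qa and Vcam1 did.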

How the data were processed

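RNA was measured in 20 libraries, 5 in each of 4 groups assigned from the sample titles. The authors trimmed reads with Trimmomatic 0.36 and worked with GRCm38.p5, DESeq2 1.12.4, featureCounts of Subread 1.5.0p3 and the aligner STAR 2.5.2b, per the submitters' processing notes, and the kit named in the labels does not mark strand. The 2 deposited tables hold whole-number read counts for 49568 symbols. Of these, 26 were turned into dates (at most 0.1559% of a library's counts). CPM were computed from the deposited counts on TMM-scaled totals over all libraries, and CPM per kilobase on the union of GENCODE M21 exons. Each comparison was fitted across all genes with edgeR 4.0.16 in R 4.3.3 (filterByExpr, TMM, robust quasi-likelihood test), p-values were adjusted by Benjamini-Hochberg, and genes under 0.05 were called. The fit was tested on simulated data. Alternatives used DESeq2 1.42.0 size factors and Wald test, limma 3.58.1 voom with quality weights, no filter or at least 1 CPM in 5 libraries, all 20 libraries in 1 fit, a replicate block, and libraries left out. The interaction without 3 libraries, and the block's libraries without the block, were added after seeing the data. The 10 genes and the 15 lists were chosen with earlier results of these data known. All 10 genes are named. From each list at most the 3 called genes of smallest p are named per comparison (the smallest p where none was called), and other named genes were picked after their values were seen. The nearest profiles are the 5 highest correlations. Some genes that these rules name are not reported here. Replicates differed beyond counting noise (chi-square per degree of freedom at least 11.3). No sequencing batch is given in the labels.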

Additional observations from a re-analysis of the deposited data

Results flagged for a closer look

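In 40 groups of 5 libraries (10 genes in 4 groups), 2 held a library whose gap to the nearest other exceeded 0.71 of the group's range. Chance flags about 1 in 20 groups, which is as many as were found. Cd68 stood at 34.1 CPM in WT LT-HSC 1, where the other WT LT-HSC libraries had 11.4 to 13.1 CPM. The same library held 0 counts of Cybb. Mrc1 stood at 19.6 CPM in WT MPP 3, where the other WT MPP libraries had 10.7 to 13.2 CPM. The causes were not tested.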

How the results depend on the processing

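Over the alternatives for single genes, 183 of 200 values for Ahr-KO against WT in LT-HSC, 164 of 170 in MPP, 154 of 170 for MPP against LT-HSC in WT, 142 of 180 in Ahr-KO and 248 of 270 for the difference of effects kept direction and call. In Ahr-KO, 1 gene was called in MPP against LT-HSC, and in either direction 0 with no filter, 3 with DESeq2 (2 higher, and Lyz2 lower), 4 with limma voom, 8 without Ahr-KO LT-HSC 2 and 3, and 0 to 4 with 1 library left out. Ahr-KO against WT in LT-HSC turned without Ahr-KO LT-HSC 2 and 3 for Lyz2 (-0.15), Ccr2 (-1.45), Cd68 (-0.33), C1qc (-0.18), Vcam1 (-0.18) and Cybb (-0.99). Without WT LT-HSC 1 as well, it turned for Lyz2 (-0.17), Ccr2 (-1.77), Adgre1 (-0.17), Vcam1 (-0.44) and Cybb (-1.31). MPP against LT-HSC in Ahr-KO turned without the pair for Lyz2 (0.23), Ccr2 (3.17) and Cybb (2.55), and with limma voom for Ccr2 (1.12) and Cybb (0.88). The difference of effects turned without the pair for Lyz2 (0.36), Ccr2 (1.40), Adgre1 (0.50), Cd68 (0.67), C1qa (0.19), C1qb (0.32), C1qc (0.70), Vcam1 (0.29) and Cybb (0.61). Without WT LT-HSC 1 as well, these were 0.37, 1.72, 0.82, 0.24, 0.35, 0.05, 0.43, 0.56 and 0.94. With 1 library left out, the difference ranged from -0.66 to 0.05 for Cd68 and from -0.50 to 0.06 for C1qc, MPP against LT-HSC in Ahr-KO from -0.65 to 0.33 for Ccr2 and from -0.84 to 0.07 for Cybb, and Ahr-KO against WT in MPP from -0.22 to 0.10 for Ccr2 (limma voom 0.02) and from -0.19 to 0.11 for Mrc1. Apart from the settings that leave libraries out, the cause was not tested.

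Shared replicate numbers did not pair the libraries: same-numbered deviations correlated at -0.155 to 0.16 over 14 pairs. With a replicate block, which keeps only libraries with shared numbers, 0 of the 10 genes were called in every comparison it was run for, against 4 in WT and 1 in Ahr-KO for MPP against LT-HSC, and the same libraries without the block also gave 0. The block turned Ahr-KO against WT in LT-HSC for Cd68 (-0.40), C1qb (-0.17) and C1qc (-0.44), MPP against LT-HSC in WT for Lyz2 (0.24) and in Ahr-KO for Ccr2 (0.53). The same libraries without the block gave -0.60, -0.16 and -0.41 for the first 3 and 0.24 for Lyz2. Values at 0 to 7 counts, such as Cybb and Ccr2 in WT LT-HSC 1 and Ahr-KO LT-HSC 7, are limited by depth.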
